A study of Mus musculus with 63 samples.

Results

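The 10 genes described here encode the core of Polycomb repressive complex 2 (Ezh1, Ezh2, Eed and Suz12), the DNA methyltransferases (Dnmt1, Dnmt3a and Dnmt3b) and the TET dioxygenases (Tet1, Tet2 and Tet3). They were taken by gene symbol from a table of 23078 genes, and all 10 were found and passed the filter on low values. RNA was measured in 63 libraries of cells sorted from the dorsal cerebral cortex of mouse embryos of the C57Bl/6 background, which fell into 19 groups by cell type and day of gestation. Neural stem cells carried the Hes5::GFP reporter and were collected at E11.5 to E18.5, in 8 groups and 26 libraries. Basal progenitors, collected at E12.5 to E18.5 in 7 groups and 24 libraries, and newborn neurons, collected at E15.5 to E18.5 in 4 groups and 13 libraries, carried Tbr2::GFP. The sources used here do not say how these Tbr2::GFP cell types were told apart in the sort. All groups shared the Ski knock-out genotype and no wild-type library was analysed here, so no value below is an effect of Ski. Groups held 2 to 6 libraries. The labels do not say that replicates came from separate embryos, so p-values measure the spread between these samples, which may be technical.

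Polycomb repressive complex 2 places methyl groups on lysine 27 of histone H3 and so helps to keep developmental genes silent. Ezh2 and Ezh1 are alternative catalytic subunits, Ezh2 being typical of dividing cells and Ezh1 of cells that have left the cycle, while Eed and Suz12 are needed for the complex to be stable and active. Dnmt1 copies DNA methylation onto the new strand at replication, Dnmt3a and Dnmt3b methylate new sites, and the TET enzymes oxidise 5-methylcytosine, a step towards its removal. In the developing cortex, Ezh2 is known for its role in the timing of neurogenesis by stem cells, and Dnmt3a for methylation in postnatal neurons.

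Levels are in TPM, a transcript abundance scaled to transcript length and to the library's total, and are given as mean ± SD over libraries. Differences are on the scale of log2(TPM + 1), given ± SE, and were tested with limma in a model of all 63 libraries, with p-values adjusted by the Benjamini-Hochberg method over 15231 genes. A gene passed at an adjusted p under 0.05. These are bulk samples, in which fewer cells of a type and less RNA per cell cannot be told apart. Read depth is unknown, since TPM keeps no depth. Libraries of a group correlated at r = 0.946 to 0.996 across genes. Ski transcript was at 17.2 to 53.1 TPM in every library, a median of 33.8 TPM, and the files do not show which part of the gene was deleted. The labels call every library female, but 39 of 63 libraries had at least 10 TPM summed over 4 Y-linked genes. Summed markers of stem cells had a median of 2401 TPM in stem cells, 641 TPM in basal progenitors and 345 TPM in newborn neurons. Summed basal progenitor markers had medians of 985, 1330 and 186 TPM in the same order. Neuronal markers were high in all 3 cell types, with medians of 3738, 5232 and 7190 TPM. Within their groups, 5 libraries stood apart along a shared axis of variation, which is described further on. Leaving them out ended no call of the 10 genes and added 9, among them Tet3 in stem cells over days and the others given with that axis. They were picked as extremes of the spread within groups. Leaving them out thus narrows that spread for genes that follow the axis, so the added calls are no support.

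The promoters of 5 of these genes are shown. Those of Ezh2, Suz12 and Dnmt1 were chosen because they hold a match to the letters below. Those of Eed and Ezh1, which hold none, are set beside them because Eed fell and Ezh1 rose with age in stem cells. The windows run from 250 bases before to 50 bases after a RefSeq start site (build GRCm38.p6), on the strand of the gene. Capitals mark matches to TTTCCCGC, TTTGGCGC, TTTCGCGC or TTTGCCGC on either strand, letters that E2F factors of the cell cycle are known to bind. The Ezh2 window is chr6:47594981-47595280 on the minus strand, that of Suz12 is chr11:79992856-79993155 on the plus strand, that of Dnmt1 is chr9:20952574-20952873 on the minus strand, that of Eed is chr7:89980927-89981226 on the minus strand, and that of Ezh1 is chr11:101226414-101226713 on the minus strand.

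Ezh2: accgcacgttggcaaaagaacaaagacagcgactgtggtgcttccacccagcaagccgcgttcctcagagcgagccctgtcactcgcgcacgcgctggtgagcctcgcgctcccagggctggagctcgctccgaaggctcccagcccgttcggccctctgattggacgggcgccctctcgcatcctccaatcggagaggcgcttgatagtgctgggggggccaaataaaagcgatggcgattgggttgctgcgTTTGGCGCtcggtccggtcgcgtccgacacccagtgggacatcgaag

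Suz12: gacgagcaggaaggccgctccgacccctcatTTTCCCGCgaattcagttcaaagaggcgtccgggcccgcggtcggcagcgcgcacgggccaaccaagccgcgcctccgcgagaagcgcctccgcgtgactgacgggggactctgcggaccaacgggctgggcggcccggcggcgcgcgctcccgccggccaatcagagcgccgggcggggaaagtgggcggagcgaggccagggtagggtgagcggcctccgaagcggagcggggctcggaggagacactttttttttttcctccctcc

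Dnmt1: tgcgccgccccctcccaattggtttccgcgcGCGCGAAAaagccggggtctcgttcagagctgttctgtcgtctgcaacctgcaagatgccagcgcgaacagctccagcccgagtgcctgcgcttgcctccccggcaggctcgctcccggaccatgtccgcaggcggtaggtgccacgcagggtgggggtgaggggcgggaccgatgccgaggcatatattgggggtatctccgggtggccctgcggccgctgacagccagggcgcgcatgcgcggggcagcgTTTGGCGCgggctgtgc

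Eed: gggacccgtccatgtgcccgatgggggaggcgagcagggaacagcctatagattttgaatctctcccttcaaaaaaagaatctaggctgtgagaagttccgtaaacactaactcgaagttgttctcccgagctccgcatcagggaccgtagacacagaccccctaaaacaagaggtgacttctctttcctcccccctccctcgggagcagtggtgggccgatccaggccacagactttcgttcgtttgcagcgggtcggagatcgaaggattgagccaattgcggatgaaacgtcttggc

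Ezh1: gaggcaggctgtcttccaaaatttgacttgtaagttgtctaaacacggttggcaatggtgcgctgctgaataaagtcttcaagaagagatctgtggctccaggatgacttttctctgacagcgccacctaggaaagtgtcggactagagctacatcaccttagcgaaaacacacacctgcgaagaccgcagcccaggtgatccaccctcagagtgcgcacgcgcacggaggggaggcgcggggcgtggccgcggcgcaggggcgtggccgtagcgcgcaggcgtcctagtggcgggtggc

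A match was found in 3 of 14 windows of the 10 genes, 1 each for Ezh2, Suz12 and Dnmt1, against 2.26% of 32851 windows of all genes. The match in Ezh2 starts at base 4 after the start site and that of Suz12 at base -219. The Dnmt1 window lies at a start site inside the annotated gene, which spans chr9:20907209-20959888 on the minus strand in GENCODE. In it, GCGCGAAA starts at base -219 and TTTGGCGC at base 34, counted from that start site. The other Dnmt1 windows are chr9:20952930-20953229 and chr9:20959839-20960138. Both matches lie downstream of the start sites of these other windows. No match was found in the windows of Ezh1, Tet1, Tet2 and Tet3, nor in those of Eed, Dnmt3a and Dnmt3b, which fell in stem cells as Ezh2, Suz12 and Dnmt1 did. Dnmt1 has 3 windows, and 2 of them held none. The 14 windows had a median of 26.5 CpG dinucleotides, against 7 over all windows. A match is a description of these letters, not a site or a cause.

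The levels ordered the genes by abundance. Ezh2 was highest of the PRC2 core, with library values of 55.2 to 321 TPM, and Ezh1 lowest, at 5.12 to 18.3 TPM. Dnmt1 was between 80.0 and 238 TPM, Dnmt3a between 24.2 and 111 TPM, and Dnmt3b between 1.35 and 11.7 TPM. Tet3 was the most abundant of the TET genes, at 32.1 to 86.5 TPM, while Tet1 and Tet2 lay between 4.14 and 25.5 TPM. Neural stem cells of E11.5 had the highest group mean for 6 genes, Ezh2, Eed, Suz12, Dnmt1, Dnmt3a and Dnmt3b, and the lowest for Ezh1. When the 19 groups were placed in order of mean level, 15 to 18 of the 18 neighbouring pairs overlapped in their library values for each gene, so the order is graded and most neighbours did not differ beyond their spread.

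**Figure D1:**
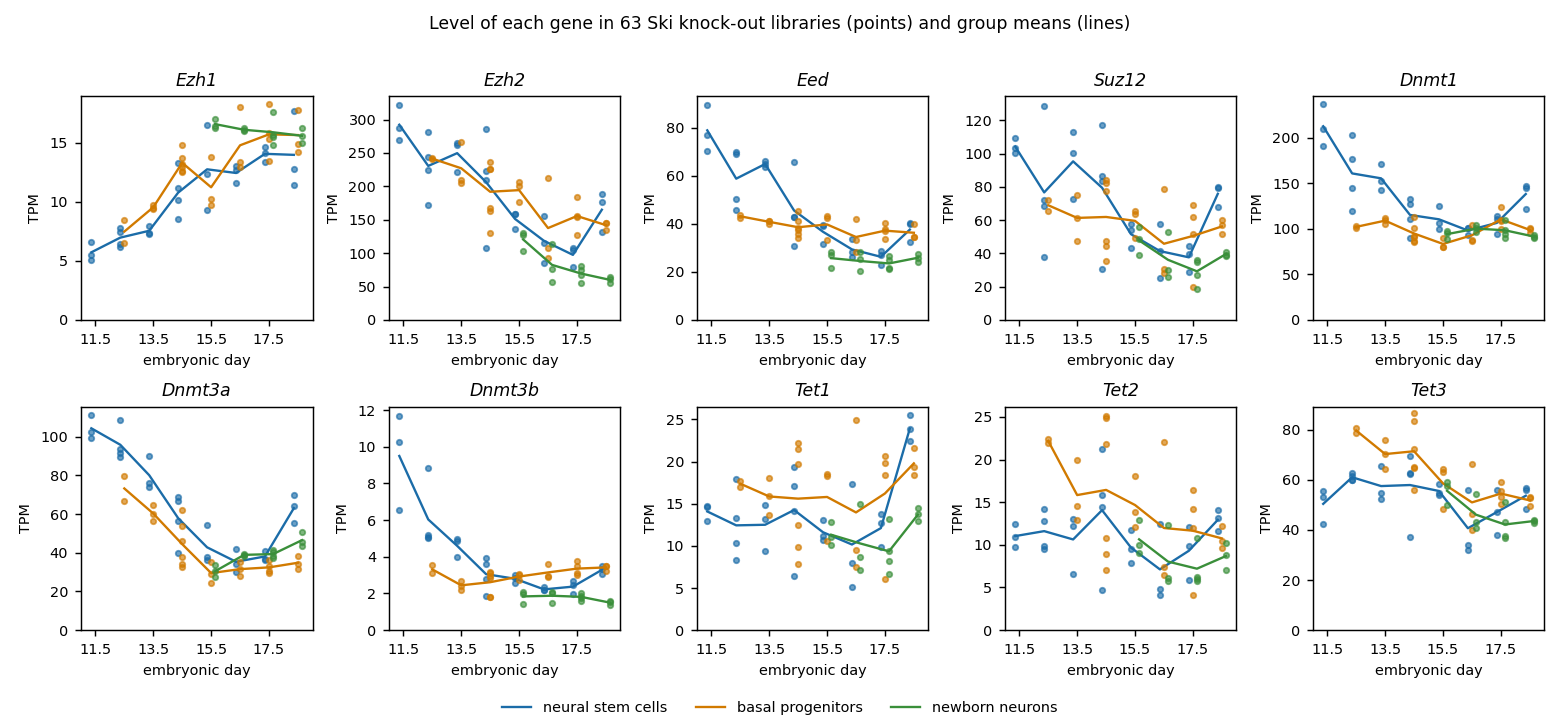
TPM of each gene (y axis, from 0) by embryonic day (x axis), with a point for each of the 63 libraries, lines through the group means, and a colour for each of the 3 cell types. Ezh2, Eed, Dnmt1, Dnmt3a and Dnmt3b start highest in stem cells of E11.5, and Ezh1 starts lowest.

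In neural stem cells, 6 of the 10 genes fell from E11.5 to E18.5 and 1 rose, where 64.9% of all tested genes passed, 37.1% higher and 27.7% lower. Of all calls 57.2% were higher, against 46% with quantile scaling. The fall took in 3 of the 4 PRC2 core genes and all 3 methyltransferases, and no TET gene passed. The catalytic subunits moved in opposite directions. Ezh2 was at 321, 287 and 269 TPM in the libraries of E11.5 and at 79.8, 108 and 104 TPM at E17.5. It was at 131, 188 and 176 TPM at E18.5, so that the libraries of E17.5 lie below those of both other days. Over the 7 days its fitted change was -1.30 ± 0.19 (limma adjusted p = 4.653e-08). Ezh1 was at 5.12, 5.50 and 6.57 TPM at E11.5 and at 17.7, 11.4 and 12.8 TPM at E18.5, with no overlap. It rose by 1.23 ± 0.11 (limma adjusted p = 7.886e-14).

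The 2 non-catalytic core subunits were lower with age. Eed, which binds methylated lysine 27, was at 78.9 ± 9.85 TPM at E11.5 (n = 3), 26.3 ± 3.08 TPM at E17.5 (n = 3) and 37.6 ± 4.40 TPM at E18.5 (n = 3). It fell by 1.38 ± 0.12 (limma adjusted p = 1.116e-13). Suz12 was at 104 ± 4.50 TPM at E11.5, 37.6 ± 8.11 TPM at E17.5 and 75.8 ± 6.96 TPM at E18.5. Its fall of 0.99 ± 0.30 passed (limma adjusted p = 0.003053), but the last day minus the first alone was -0.46 (adjusted p = 0.3432).

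The methyltransferases fell together. The maintenance enzyme Dnmt1 was at 238, 210 and 191 TPM at E11.5, at 101, 93.0 and 101 TPM at E16.5, and at 122, 145.4 and 147 TPM at E18.5, and its libraries of E11.5 all lie above those of both later days. It fell by 0.76 ± 0.09 (limma adjusted p = 1.126e-09). Dnmt3a was at 104 ± 6.22 TPM at E11.5, 35.3 ± 5.97 TPM at E16.5 and 63.1 ± 7.35 TPM at E18.5 (n = 3 each), and fell by 1.29 ± 0.13 (limma adjusted p = 1.656e-12). Dnmt3b was at 11.7, 10.3 and 6.55 TPM at E11.5, at 2.34, 2.17 and 2.17 TPM at E16.5, and at 3.05, 3.31 and 3.49 TPM at E18.5. It fell by 1.37 ± 0.13 (limma adjusted p = 3.493e-13), with no overlap between E11.5 and either later day.

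The TET genes had no such course. Tet1 had a fitted change of 0.31 ± 0.28 (95% interval -0.26 to 0.88), Tet2 of -0.19 ± 0.32 (interval -0.83 to 0.45) and Tet3 of -0.24 ± 0.13 (interval -0.51 to 0.03). Tet3 passed, as lower, in 5 alternatives: quantile scaling (-0.33), median-of-ratios scaling (-0.31), without E18.5 (-0.40), without the 5 libraries that stood apart (-0.25), and without stem cell replicate 1 of E16.5 (-0.30). The widths for Tet1 and Tet2 leave room for changes of either sign.

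The cell cycle lists fell in stem cells as well. All 22 S phase genes and all 22 genes of G2 and M phase were lower with age, where 27.7% of all tested genes were. Their medians were -1.91 and -1.84, against 0.09 over all tested genes. Summed S phase genes went from 4416 ± 523 TPM at E11.5 to 1000.0 ± 29.9 TPM at E17.5 and 1987 ± 607 TPM at E18.5. Their part in the changes of the PRC2 and methyltransferase genes was not tested. Microglial markers rose with age (8 of 8, where 37.1% of all genes rose), with sums of 2.21 to 325 TPM over the stem cell libraries. Neuronal markers rose in 6 of 8, while 6 of 8 stem cell markers fell. The part of these lists was not tested.

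In basal progenitors, 1 of the 10 genes rose and 4 fell from E12.5 to E18.5, where 42.6% of all tested genes passed, 27.5% higher and 15.1% lower. Of all calls 64.5% were higher, against 50.7% with quantile scaling and 51.1% with median-of-ratios scaling. Ezh1 rose by 0.94 ± 0.12 (limma adjusted p = 1.426e-08), from 6.54 and 8.43 TPM at E12.5 to 14.3, 14.9 and 17.8 TPM at E18.5, with no overlap. Ezh2 fell by 0.84 ± 0.21 (adjusted p = 0.00109), from 242 and 241 TPM to 145.9, 134.8 and 145.2 TPM, also with no overlap. Dnmt3a fell by 1.15 ± 0.14 (adjusted p = 4.006e-09), from 79.5 and 67.0 TPM at E12.5 to 34.3, 38.4 and 31.8 TPM at E18.5. Tet3 fell by 0.65 ± 0.15 (adjusted p = 0.0003427), from 79.6 ± 1.41 TPM (n = 2) to 51.8 ± 1.94 TPM (n = 3). Tet2 fell by 0.96 ± 0.36 (adjusted p = 0.02726), from 22.2 ± 0.34 TPM (n = 2) to 10.8 ± 1.29 TPM (n = 3). The Tet2 call was lost without any 1 of 5 basal progenitor libraries, both of E12.5, replicate 1 of E13.5, replicate 2 of E17.5 or replicate 2 of E18.5 (fitted changes of -0.79 to -0.97).

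Eed, Suz12, Dnmt1, Dnmt3b and Tet1 did not pass in basal progenitors. Eed, at -0.25 ± 0.14, passed as lower with quantile scaling (-0.33, adjusted p = 0.0197), median-of-ratios scaling (-0.36, adjusted p = 0.009384) and library weights (-0.24, adjusted p = 0.0101), and Suz12 with library weights (-0.49, adjusted p = 0.01298). Dnmt1 was at 83.4 to 110.5 TPM in its group means, with a fitted change of -0.03 ± 0.11 (95% interval -0.25 to 0.18). Dnmt3b was at 2.44 to 3.42 TPM, with a change of 0.21 ± 0.14 (interval -0.08 to 0.50). In this cell type 4 of 22 S phase genes fell and 2 rose, and 16 of 22 genes of G2 and M phase fell. All 7 tested endothelial markers and 5 of 8 erythroid markers rose, and their part was not tested.

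In newborn neurons, over the 3 days from E15.5 to E18.5, 1 of the 10 genes fell and 1 rose, where 16% of all tested genes passed, 10.9% higher and 5.08% lower. Of all calls 68.3% were higher, against 54.2% with quantile scaling. Ezh2 fell by 0.95 ± 0.24 (limma adjusted p = 0.003097), from 130, 103 and 128 TPM at E15.5 to 60.9, 63.9 and 55.3 TPM at E18.5, with no overlap. Dnmt3a rose by 0.54 ± 0.16 (adjusted p = 0.01339), from 30.3, 27.4 and 33.6 TPM to 50.5, 45.4 and 43.6 TPM, with no overlap either. Without newborn neuron replicate 2 of E15.5 or replicate 1 of E18.5 the Dnmt3a change was 0.48 or 0.49 and did not pass, nor did it without E18.5 (0.54, over fewer days). Ezh1 was at 14.8 to 17.6 TPM in all 13 libraries. Microglial markers rose in 8 of 8 over these days, with group means of their sum from 5.55 ± 1.47 TPM at E15.5 to 116 ± 18.2 TPM at E18.5, and 7 of 8 basal progenitor markers fell. The part of both was not tested.

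**Figure D2:**
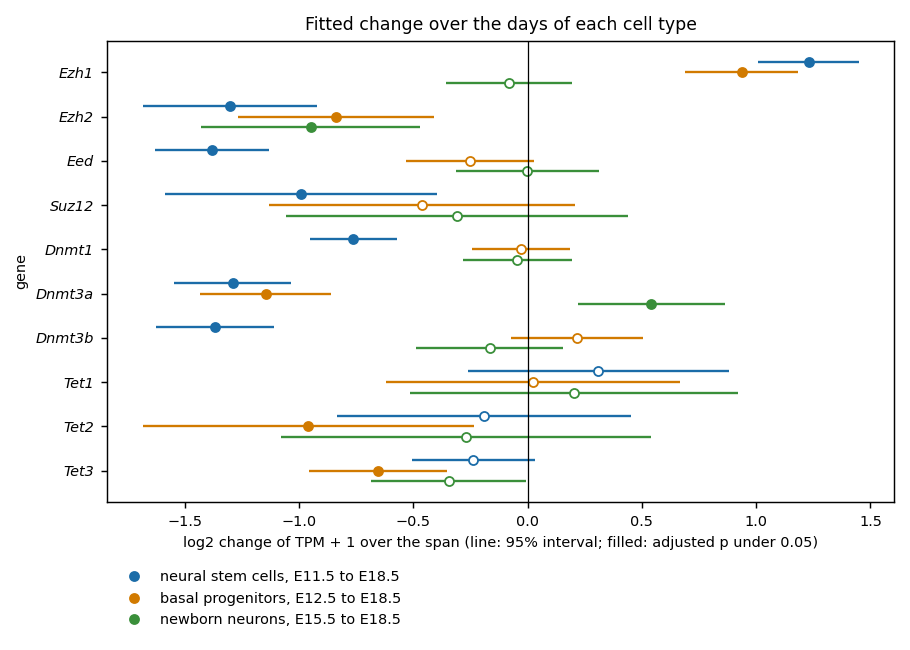
Fitted change over the days of each cell type, in log2(TPM + 1) over the span (x axis), for the 10 genes (y axis), with a point per cell type, lines for 95% intervals and filled points at an adjusted p under 0.05. Ezh1 is positive in stem cells and basal progenitors, and Dnmt3a is negative in these and positive in newborn neurons.

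Whether the courses of stem cells and basal progenitors differed was tested as the difference of their slopes over E12.5 to E18.5, in which 29.8% of all genes passed, 14.2% higher and 15.6% lower. The slope was lower in stem cells for 3 of the 10 genes, none of which had passed in basal progenitors alone. Eed differed by -0.81 ± 0.19 (limma adjusted p = 0.0008498), Dnmt3b by -1.03 ± 0.19 (adjusted p = 6.392e-05) and Dnmt1 by -0.37 ± 0.14 (adjusted p = 0.04487). Compared as the last day minus the first, the difference no longer passed for Eed (-0.37, adjusted p = 0.3824), Dnmt3b (-0.72, adjusted p = 0.05891) or Dnmt1 (-0.15, adjusted p = 0.6708). The Dnmt1 call was also lost when any 1 of 18 libraries was left out. Among S phase genes 20 of 22 had the lower slope in stem cells, and 6 of 8 microglial markers the higher; their part was not tested. Ezh1, Ezh2, Suz12, Dnmt3a and the TET genes did not pass; for Ezh2 the difference was -0.21 (95% interval -0.79 to 0.37). Slopes of newborn neurons and basal progenitors over E15.5 to E18.5 differed in none of the 10 genes by limma, where 3.41% of all genes passed, 1.44% higher and 1.96% lower, and 1 of the 10, Ezh1, had an unadjusted p under 0.05.

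Between cell types, 8 of the 10 genes differed between newborn neurons and basal progenitors over the 4 shared days, 6 lower and 2 higher in neurons, where 58.5% of all genes passed, 25.3% higher and 33.3% lower. Of all calls 43.1% were higher, against 51% with median-of-ratios scaling, under which Suz12 (-0.37, adjusted p = 0.06674) and Tet3 (-0.14, adjusted p = 0.09163) did not pass. Ezh2 was lower by a difference of -0.94 ± 0.12 (limma adjusted p = 3.797e-09), in 4 of 4 days and with no overlap of libraries on 3 of them. Eed differed by -0.55 ± 0.08 (adjusted p = 6.326e-08) and Dnmt3b by -0.61 ± 0.08 (adjusted p = 8.663e-09), each with no overlap on 4 of 4 days. At E18.5 Dnmt3b was at 1.60, 1.35 and 1.55 TPM in neurons and at 3.51, 3.23 and 3.52 TPM in basal progenitors. Dnmt3a was higher in neurons by 0.26 ± 0.08 (adjusted p = 0.005656), on 4 of 4 days, and Ezh1 by 0.17 ± 0.07 (adjusted p = 0.0331), on 3 of 4 days. Dnmt1, in contrast, differed by 0.00 ± 0.06 (95% interval -0.12 to 0.13).

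The other 3 lower genes lay near the threshold. Tet1 differed by -0.46 ± 0.18 (limma adjusted p = 0.02823), Tet3 by -0.20 ± 0.09 (adjusted p = 0.04179) and Suz12 by -0.43 ± 0.19 (adjusted p = 0.04879). The Suz12 call was lost in 41 of 63 fits that each left out 1 library (-0.45 to -0.31), and that of Tet3 in 14 (-0.20 to -0.15). That of Tet1 was lost without basal progenitor replicates 1 or 3 of E15.5, basal progenitor replicate 1 of E16.5 or newborn neuron replicate 3 of E16.5 (-0.43 to -0.34). That of Ezh1 was lost without any 1 of 9 libraries, 7 of them of basal progenitors and 2 of newborn neurons (0.15 to 0.17). Without E18.5, Dnmt3a (0.21) and all 3 of these genes did not pass. The 22 S phase genes and 22 genes of G2 and M phase were all lower in neurons, with medians of -0.89 and -2.05, and 8 of 8 microglial markers were higher. Their part in these differences was not tested.

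Against stem cells, newborn neurons were higher in Ezh1 and lower in 4 genes, where 54.6% of all genes passed, 21.8% higher and 32.8% lower. Of all calls 40% were higher, against 53% with quantile scaling and 51.4% with median-of-ratios scaling. Ezh1 differed by 0.27 ± 0.07 (limma adjusted p = 0.001389), Ezh2 by -0.69 ± 0.12 (adjusted p = 4.986e-06), Eed by -0.36 ± 0.08 (adjusted p = 0.0002137) and Dnmt3b by -0.41 ± 0.08 (adjusted p = 4.679e-05), each in the same direction on 4 of 4 days. Dnmt1 differed by -0.22 ± 0.06 (adjusted p = 0.002187), on 3 of 4 days; without E18.5 it was -0.10 and did not pass. Interneuron markers, 8 of 8 lower in newborn neurons than in stem cells, summed to 113 to 927 TPM in stem cell libraries and to 11.7 to 63.5 TPM in newborn neuron libraries. All 22 S phase genes and all 22 genes of G2 and M phase were lower in newborn neurons too, and 8 of 8 microglial markers were higher. The part of these lists was not tested.

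Stem cells and basal progenitors differed in 5 of the 10 genes over the 7 shared days, where 48% of all genes passed, 27.2% higher and 20.8% lower. Of all calls 56.6% were higher in stem cells, against 43.9% with quantile scaling. The methyltransferases Dnmt1 (0.33 ± 0.05, limma adjusted p = 7.187e-08) and Dnmt3a (0.41 ± 0.06, adjusted p = 2.479e-07) were higher in stem cells, on 6 and 7 of 7 days, each with no overlap on 4 days. Tet3 was lower in stem cells (-0.22 ± 0.07, adjusted p = 0.004225), and so were Tet2 (-0.40 ± 0.16, adjusted p = 0.03142) and Ezh1 (-0.15 ± 0.05, adjusted p = 0.01661), each on 6 of 7 days. At E12.5 Tet2 was at 9.56 to 14.3 TPM in the 4 stem cell libraries and at 21.9 and 22.4 TPM in basal progenitors. The Tet2 call was lost without any 1 of 6 libraries: in stem cells replicate 1 of E13.5, replicate 2 of E14.5, replicates 2 and 3 of E16.5 and replicate 1 of E17.5, and in basal progenitors replicate 1 of E16.5 (-0.33 to -0.38), and without stem cells of E12.5 (-0.32). Without basal progenitor replicate 2 of E12.5, Ezh1 was at -0.13 and did not pass. Ezh2 (-0.13), Eed (0.07), Suz12 (0.11), Dnmt3b (0.10) and Tet1 (-0.25) did not pass. In stem cells 20 of 22 S phase genes, 16 of 22 genes of G2 and M phase and 8 of 8 interneuron markers were higher, and their part was not tested.

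**Figure D3:**
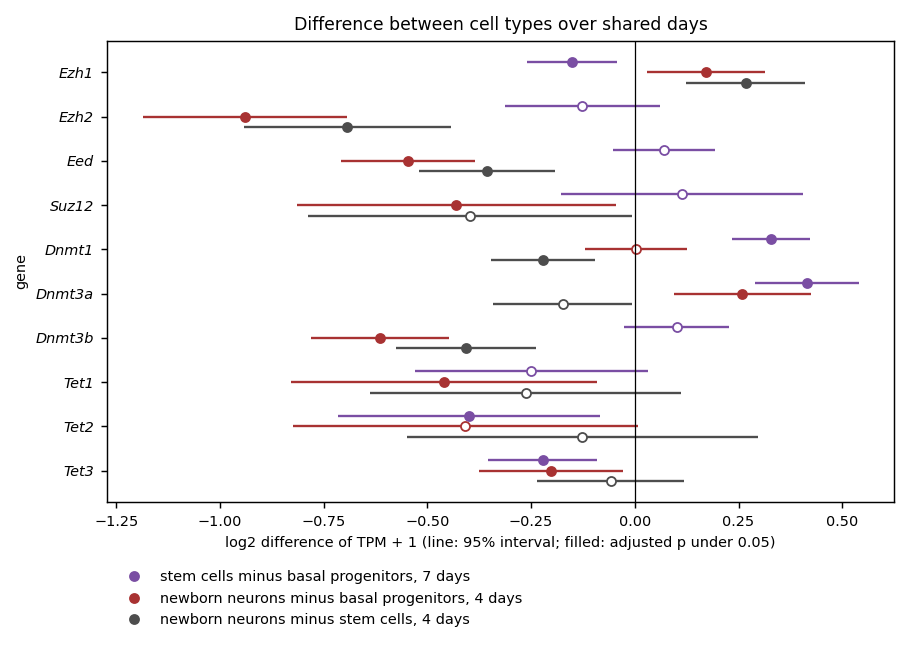
Difference between cell types in log2(TPM + 1) over shared days (x axis) for the 10 genes (y axis), with lines for 95% intervals and filled points at an adjusted p under 0.05. Ezh2, Eed and Dnmt3b are lower in newborn neurons than in both other cell types, and Dnmt1 and Dnmt3a are higher in stem cells than in basal progenitors.

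Stem cells of the last day differed from those of the day before. From E17.5 to E18.5, 5 of the 10 genes rose and none fell, where 30.4% of all genes passed, 21.7% higher and 8.69% lower. Of all calls 71.4% were higher, against 48.5% with quantile scaling and 56.4% with median-of-ratios scaling. The 5 genes were Ezh2 (0.75 ± 0.25, limma adjusted p = 0.02057), Eed (0.50 ± 0.17, adjusted p = 0.01823), Suz12 (1.01 ± 0.39, adjusted p = 0.04602), Dnmt1 (0.37 ± 0.13, adjusted p = 0.022) and Dnmt3a (0.71 ± 0.17, adjusted p = 0.001223). With median-of-ratios scaling Suz12 (adjusted p = 0.05712) and Dnmt1 (adjusted p = 0.09278) did not pass, and with quantile scaling Eed (adjusted p = 0.08329) did not. For Suz12 the libraries were at 28.7, 44.5 and 39.7 TPM at E17.5 and at 67.8, 79.5 and 80.1 TPM at E18.5. Dnmt3a was at 37.0, 40.9 and 36.3 TPM and then at 55.3, 63.9 and 70.0 TPM. Tet1 was at 9.84, 12.7 and 13.8 TPM and then at 22.4, 23.8 and 25.5 TPM, without overlap, at a difference of 0.94 ± 0.38 that did not pass (adjusted p = 0.0542). With 1 library left out, only 1 of these 5 genes passed without stem cell replicate 1 of E17.5, replicate 2 of E18.5 or replicate 3 of E18.5. The call of Dnmt3a was kept in all 3 of these fits. That of Suz12 was lost without any 1 of 5 of the 6 libraries, also without replicate 3 of E17.5 (adjusted p = 0.07062) or replicate 1 of E18.5 (adjusted p = 0.05099).

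Beside this step, 20 of 22 S phase genes, all 22 genes of G2 and M phase and all 8 stem cell markers rose, and 7 of 8 microglial markers fell. The summed stem cell markers were at 1131 to 1702 TPM at E17.5 and at 3209 to 6664 TPM at E18.5. Summed microglial markers ranged from 20.6 to 325 TPM at E17.5 and from 7.38 to 48.1 TPM at E18.5. The part of none of these was tested. No such step was detected in basal progenitors: none of the 10 genes passed by limma or had an unadjusted p under 0.05, and 0.0197% of all genes passed, 0.0131% higher and 0.00657% lower. The 95% intervals of Suz12 (-0.46 to 1.03) and Tet1 (-0.31 to 1.11) held the stem cell changes of 1.01 and 0.94. Those of Ezh2, Eed, Dnmt1 and Dnmt3a did not hold theirs. In the test of the difference between the 2 steps, added after the data were seen, 17.1% of all genes passed, 11.8% higher and 5.27% lower, and Dnmt1 was the only one of the 10 (0.53 ± 0.17, limma adjusted p = 0.02887). That call was lost without stem cell replicate 1 of E17.5, replicate 2 or 3 of E18.5, or basal progenitor replicate 4 of E17.5 or replicate 2 of E18.5 (0.45 to 0.50), and with median-of-ratios scaling (0.42).

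A change of at least 1 on the log2 scale was reached by fewer genes. Over days it was passed by Ezh1, Ezh2, Eed, Dnmt3a and Dnmt3b in stem cells, where 23% of all genes did so, by Dnmt3a in basal progenitors (11.3% of all genes) and by none of the 10 in newborn neurons (4.74%). None of the 10 reached it between stem cells and basal progenitors (3.03%), newborn neurons and basal progenitors (10.8%) or newborn neurons and stem cells (8.65%). Dnmt3b reached it in the slopes of stem cells against basal progenitors (10.5%) and Suz12, whose call there is lost as given above, in the last step of stem cells (9.41%), and none of the 10 in the slopes of newborn neurons against basal progenitors (2.4%), the last step of basal progenitors (0.0131%) or the difference of steps (9.03%).

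Ratios within a library set paralogs side by side. The log2 ratio of Ezh1 to Ezh2 was -5.45 ± 0.28 in stem cells of E11.5 and -1.88 ± 0.10 in newborn neurons of E18.5 (n = 3 each), the lowest and highest of the 19 groups, so that Ezh2 was the more abundant of the pair everywhere. In stem cells the ratio was -2.70 ± 0.19 at E17.5 and -3.48 ± 0.58 at E18.5. In newborn neurons it was -2.78 ± 0.16 at E15.5. The ratio of Dnmt3a to Dnmt3b was between 2.94 ± 0.03 in basal progenitors of E17.5 (n = 4) and 4.25 ± 0.10 in newborn neurons of E18.5. In basal progenitors it was 4.10 ± 0.27 at E12.5 (n = 2). Tet3 to Tet1 was lowest in stem cells of E18.5, at 1.13 ± 0.07, and highest in stem cells of E12.5, at 2.26 ± 0.42 (n = 4). These ratios were described and not tested.

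**Figure D4:**
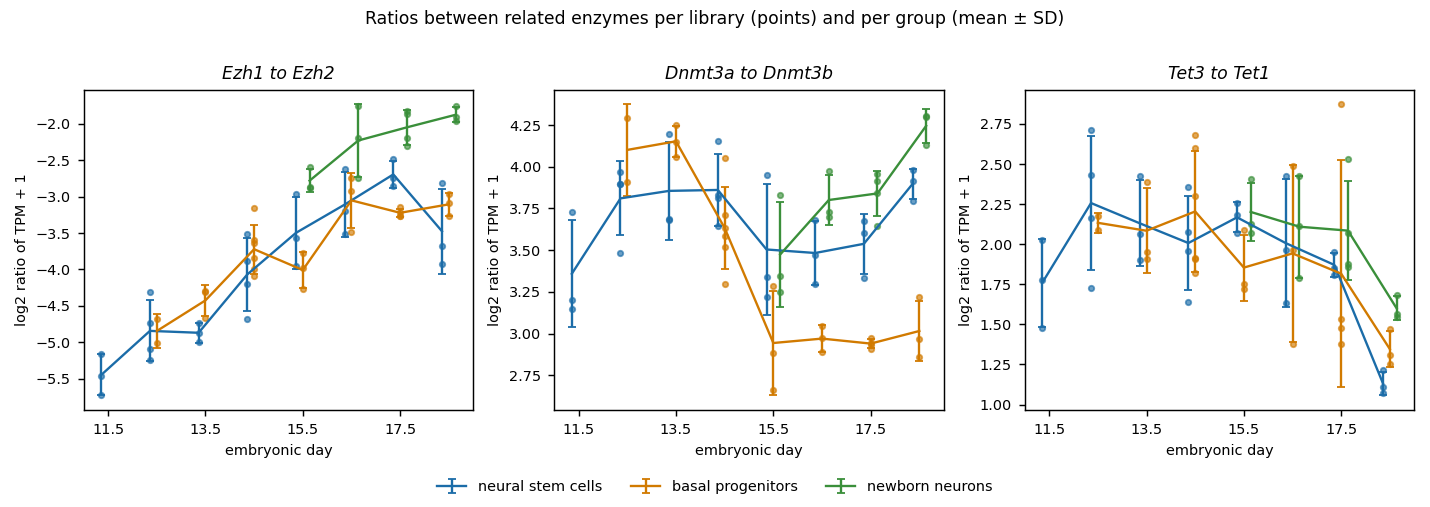
Log2 ratio of TPM + 1 between related enzymes (y axis) by embryonic day (x axis), with points for libraries and lines for group means ± SD in the 3 cell types. The ratio of Ezh1 to Ezh2 runs from -5.45 in stem cells of E11.5 to -1.88 in newborn neurons of E18.5.

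Partners were read from lists. Of the 6 tested partners of the methyltransferases (Dnmt3l, at or near 0 TPM, was not tested), all 6 fell in stem cells with age, where 27.7% of all genes fell, at a median of -1.99 against 0.09 over all genes. Uhrf1, which brings Dnmt1 to hemimethylated DNA, fell by 2.58 ± 0.20 (limma adjusted p = 2.024e-15), from 320.4 ± 52.8 TPM at E11.5 to 38.2 ± 1.24 TPM at E17.5. Cdca7l fell by 2.69 ± 0.24 (adjusted p = 7.807e-14) and Cdca7 by 1.53 ± 0.19 (adjusted p = 1.237e-09). In basal progenitors, where 27.5% of all genes rose, 2 of 6 did, Cdca7 by 0.89 ± 0.21 (adjusted p = 0.000599) and Cdca7l by 0.81 ± 0.27 (adjusted p = 0.01274). Newborn neurons were lower than basal progenitors in 4 of 6, against 33.3% of all genes, Uhrf1 by a difference of -1.69 ± 0.13 (adjusted p = 1.107e-15).

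Of 9 accessory subunits of PRC2, 5 fell and 2 rose with age in stem cells, where 27.7% of all genes fell and 37.1% rose. Rbbp7, a histone-binding subunit, fell by 0.85 ± 0.09 (limma adjusted p = 9.656e-12), and Phf1, a Polycomb-like subunit, rose by 1.38 ± 0.12 (adjusted p = 1.401e-13). Phf19, another Polycomb-like subunit, was at 3.84 ± 0.62 TPM at E11.5 and at 9.13 ± 3.46 TPM at E18.5, and was higher in stem cells than in basal progenitors by 1.06 ± 0.08 (adjusted p = 1.358e-15). Newborn neurons were lower than basal progenitors in 5 of 9, against 33.3% of all genes, among them Jarid2 (-0.70 ± 0.11, adjusted p = 2.545e-07), and in none higher.

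Of 19 PRC1 subunits, 7 rose and 4 fell in stem cells with age, close to the 37.1% and 27.7% of all genes. Cbx2, a chromodomain subunit that reads methylated lysine 27, fell by 2.00 ± 0.11 (limma adjusted p = 1.769e-21), from 101 ± 6.21 TPM at E11.5 to 26.0 ± 3.79 TPM at E17.5. Kdm2b, which binds CpG islands, rose by 0.88 ± 0.06 (adjusted p = 5.351e-17). The Kdm6b demethylase was lower in stem cells than in basal progenitors (-0.32 ± 0.05, adjusted p = 3.603e-06) and lower in newborn neurons than in basal progenitors (-0.45 ± 0.07, adjusted p = 4.222e-07).

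Of 9 genes that work with TET enzymes or in base excision, 5 fell and 1 rose in stem cells, so that 6 of 9 passed where 64.9% of all genes did. Gadd45a fell by 2.33 ± 0.19 (limma adjusted p = 9.23e-15) and the glycosylase Tdg by 0.51 ± 0.06 (adjusted p = 7.869e-11). Among readers of methylated DNA, Zbtb4 rose in stem cells by 1.99 ± 0.14 (adjusted p = 4.252e-17) and Mbd2 fell by 0.51 ± 0.09 (adjusted p = 7.681e-07).

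Some genes known as targets of these enzymes were at low levels. Of 39 Hox genes, 38 were in the table and 2 were tested, and their summed level was 1.18 to 15.0 TPM over the libraries. Both Ink4 genes, Cdkn2a and Cdkn2b, were below the filter, with a summed level of at most 0.92 TPM. Of 13 germline genes 4 were tested, and 3 of these were higher in newborn neurons than in basal progenitors, where 25.3% of all genes were, Brdt by 0.89 ± 0.09 (limma adjusted p = 1.631e-12). A gene could pass the filter through newborn neurons alone. There 3 germline genes averaged at least 1 TPM, against 1 in basal progenitors and 1 in stem cells. The count of 3 therefore cannot be read against the share of all genes.

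Libraries of one group also varied along a shared axis, which held 29.4% of the variance within groups over all tested genes. Its score was beyond 1.5 SD in 5 libraries, namely stem cell replicate 2 of E14.5, basal progenitor replicate 2 of E14.5, replicate 1 of E16.5 and replicate 2 of E17.5, and newborn neuron replicate 1 of E16.5. Over the 63 libraries the correlation of a gene's deviation from its group mean with the score was -0.95 for Tet2, -0.93 for Tet1, -0.92 for Suz12 and -0.90 for Ezh2, while it was -0.59 for Dnmt1 and -0.38 for Ezh1. The axis was built from all tested genes, these 10 among them, and its sign was set so that Suz12 is low at positive scores. Of all tested genes, 1.38% had a correlation at or below that of Tet2, 7.04% at or below that of Ezh2 and 25.4% at or below that of Dnmt1. All 7 libraries with a score above 1 SD were below their group mean in Tet1, Tet2, Tet3, Suz12 and Ezh2, and all 8 below -1 SD were above it. These counts restate the correlations, since the score comes from the same deviations. In stem cells of E14.5, for example, Tet2 was at 4.71 TPM in replicate 2 and between 14.46 and 21.2 TPM in the other 3 libraries, and Suz12 at 117, 30.8, 86.6 and 83.3 TPM. The SD within groups was 0.54 for Tet2, 0.50 for Suz12 and 0.48 for Tet1, against 0.16 for Dnmt1, on the log2 scale. Across 15023 genes the longest annotated transcript and the correlation with the score had a Spearman rho of -0.47, a description over genes that are not independent. The longest transcripts of Tet1, Tet2 and Tet3 have 14369, 9179 and 10904 bases, against a median of 3280 bases. Other members did not order this way: Ezh2, at r = -0.90, has 2787 bases, while Dnmt3a, at r = -0.60, has 9685 and Dnmt1, at r = -0.59, has 5870. The part of transcript length in these values was not tested. Without the 5 libraries, Suz12 (-0.47), Dnmt3a (-0.18) and Tet1 (-0.33) were also lower in newborn neurons than in stem cells, Tet2 (-0.45) was lower than in basal progenitors, and Tet1 rose in the last step of stem cells (0.94). None of the 5 was a stem cell library of E17.5 or E18.5, so that Tet1 change was the same and only estimates of spread differed. In the difference of steps Ezh2 (0.96), Suz12 (1.11) and Dnmt3a (0.63) passed as well.

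**Figure D5:**
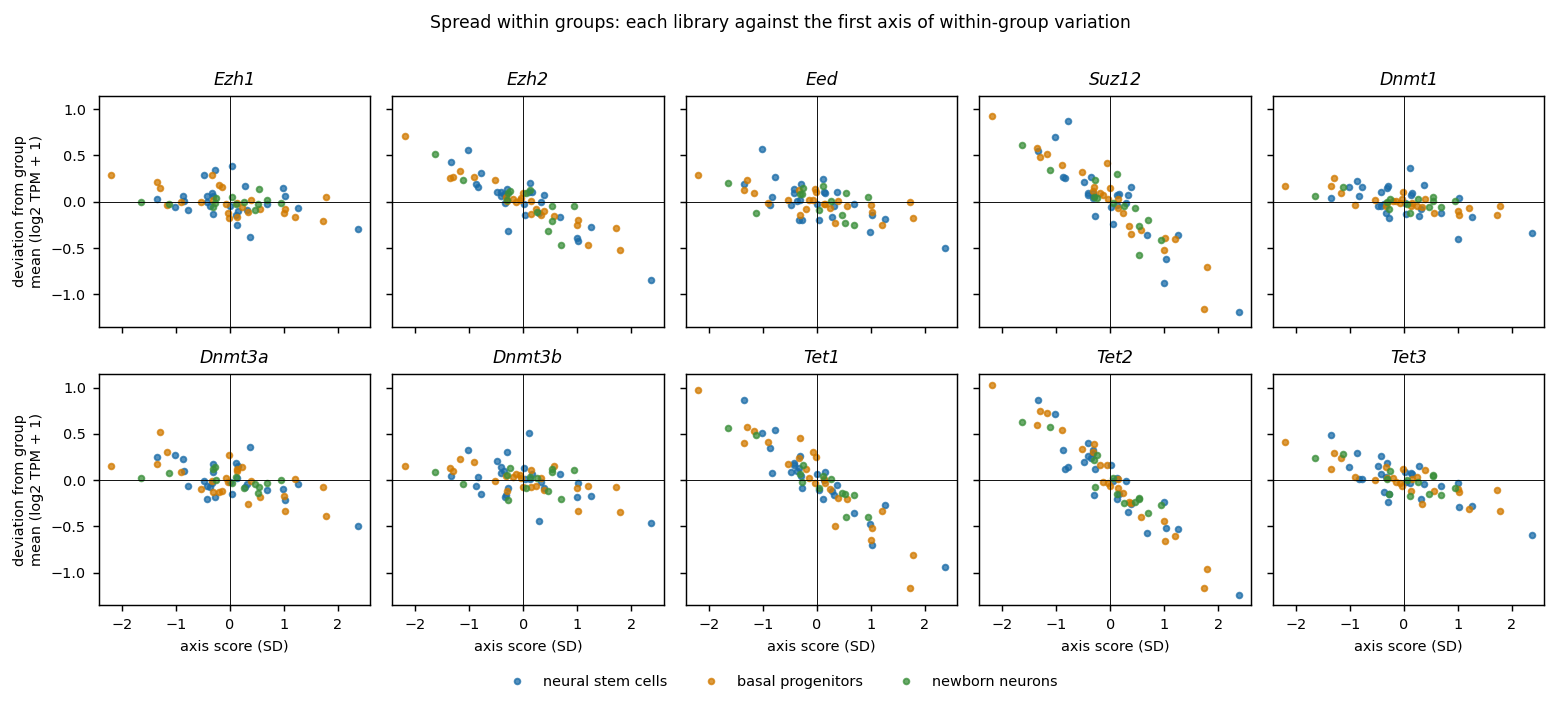
Deviation of each library from its group mean in log2(TPM + 1) (y axis) against its score on the first axis of within-group variation in SD (x axis), for the 10 genes in 63 libraries. Tet2, Tet1, Suz12 and Ezh2 fall along the axis, and Ezh1 and Dnmt1 stay closer to 0.

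Genes whose group means ran most like those of a member were named by Pearson r over the 19 groups among 11120 genes. These were Arl6ip6, Kdm3a and Zfp143 for Ezh2 (r = 0.98 to 0.99), Fam84a, Enc1 and Amigo1 for Ezh1 (r = 0.97 to 0.98), Thoc7, Pank2 and Zfp422 for Eed, Etaa1, Papola and Fbxo30 for Suz12, and Nup133, Pold3 and Rfc2 for Dnmt1. They were Rasl11a, Isoc1 and Gatad1 for Dnmt3a, Slc2a1, Hlcs and Rfc3 for Dnmt3b, Zfp760, Map3k7 and Bptf for Tet1, Mtf2, Trip12 and Wdr26 for Tet2, and Ssh1, Rnf111 and Mtf2 for Tet3. Groups of one cell type share their sort and neighbouring days, and 13 of these 30 names were the same with quantile scaling.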

How the data were processed

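RNA was measured in 63 libraries. Total RNA of sorted cells was made into libraries with the TruSeq v2 kit and read as single ends, per the labels' protocols. The submitters' processing notes name kallisto 0.43.0 and the builds GRCm38.p2 and mm10. The authors deposited 1 TPM value per gene and library, and the sources used here do not say how transcripts were summed to genes. Read depth is not kept in TPM, so errors come from replicate libraries alone.

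From these, log2(TPM + 1) was computed, and 15231 of 23078 genes, those reaching 1 TPM in 3 or more libraries, entered limma 3.58.1 in R 4.3.3, with 1 mean for each of 19 groups and variances moderated along a trend on level. Changes over days are slopes through group means over the span of 7, 6 or 3 days, and cell types were compared over shared days. A gene passed at a Benjamini-Hochberg adjusted p under 0.05. The fit was checked on simulated data for each of the 11 comparisons, 15231 genes in all, where it recovered 16% to 96% of true changes of 0.5. There were 6 to 15 false calls. Changes were placed in 200 genes of higher level, and the simulated noise was independent between genes. Real libraries share an axis of variation, so this does not check the error rate under shared noise.

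The 10 genes and all lists were chosen with earlier results of these data known. Named are all 10 genes, up to 3 genes of smallest adjusted p in each direction per list and comparison, and the 3 genes of most alike group means for each member. The list name Epop was matched to E130012A19Rik. Alternatives were other pseudocounts, filters, scalings, library weights, fewer libraries, a replicate block and a fold limit. Promoter windows are from RefSeq, and transcript lengths from GENCODE vM21, possibly not the release used upstream. Pooled over days, replicate numbers gave no clear pairing. Pairing of same-numbered libraries within a day was not tested, and the comparisons of cell types treat such libraries as independent. A gene of the list of methylated DNA readers is not reported here, so no count is given for that list.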

Additional observations from a re-analysis of the deposited data

Results flagged for a closer look

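Over the 10 genes and the 5 groups of 4 or more libraries, 3 of 50 sets of values held 1 library far from the others, where chance gives about 1 in 20 groups. Dnmt3b was at 8.82 TPM in stem cell replicate 4 of E12.5, with the other 3 libraries at 5.05 to 5.205 TPM. Tet1 was at 6.01 TPM in basal progenitor replicate 2 of E17.5, with the other 3 at 18.4 to 20.7 TPM. Tet2 was at 10.9 TPM in newborn neuron replicate 1 of E17.5, with the other 3 at 5.76 to 6.20 TPM. The Tet1 library was also among the 5 beyond 1.5 SD on the shared axis of within-group variation.

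Courses differed between stem cells and basal progenitors by a test of the difference itself in 3 genes, with slope differences over E12.5 to E18.5 of -0.81 for Eed, -0.37 for Dnmt1 and -1.03 for Dnmt3b. In that test 29.8% of all genes passed. None of the 3 passed as the last day minus the first, and the Dnmt1 call was lost without any 1 of 18 libraries. The change from E17.5 to E18.5 differed between these cell types in Dnmt1, by 0.53, where 17.1% of all genes passed. This test was added after the data were seen. Its Dnmt1 call was lost without any 1 of 5 libraries and with median-of-ratios scaling.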

How the results depend on the processing

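Of 8349 values of the 10 genes under an alternative, 92 had the opposite sign and passed in neither fit, and 0 of opposite sign passed in a fit. Calls that held in all alternatives run, the fold limit of the next paragraph aside, were Ezh1, Ezh2, Eed, Dnmt1, Dnmt3a and Dnmt3b in stem cells over days, Ezh1, Ezh2, Dnmt3a and Tet3 in basal progenitors over days, Ezh2 in newborn neurons over days, and, between cell types, Dnmt1, Dnmt3a and Tet3 between stem cells and basal progenitors, Ezh2, Eed and Dnmt3b between newborn neurons and both other cell types, Ezh1 between newborn neurons and stem cells, and Dnmt3a in the last step of stem cells. The cause of the other changes below was not tested.

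With a change of at least 1 also required, genes passing numbered 3498 in stem cells over days, 1719 in basal progenitors (0 of the 10 genes higher, 1 lower), 722 in newborn neurons (0 and 0), 461 between stem cells and basal progenitors (0 and 0), 1652 between newborn neurons and basal progenitors (0 and 0), 1318 between newborn neurons and stem cells (0 and 0), 1603 in the slopes of stem cells against basal progenitors (1 lower), 1433 in the last step of stem cells (1 higher) and 1376 in the difference of steps (0 higher).

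With library weights, whose estimation stopped before convergence, 5262 genes passed in newborn neurons over days (2 of the 10 lower), 2 of the 10 were higher in the slopes of stem cells against basal progenitors, 2655 passed in the slopes of newborn neurons against basal progenitors (3 lower), 9108 in the last step of stem cells (1 lower), 354 in that of basal progenitors and 7123 in the difference of steps (5 higher). Without E18.5, 1389 genes passed in newborn neurons over days (0 higher) and 192 in the slopes of newborn neurons against basal progenitors, and newborn neurons differed from basal progenitors in 1 gene higher and 3 lower. Without stem cells of E17.5, 4 of the 10 were higher in stem cells than in basal progenitors. The share of all genes passing is not given for each of these fits, so such counts show changed calls only. Without the 5 libraries beyond 1.5 SD, 7 were lower in newborn neurons than in stem cells, and 3937 genes passed in the difference of steps (4 higher). The last day minus the first gave 1304 genes in the slopes of stem cells against basal progenitors (0 lower). A mean of at least 5 TPM, which left Dnmt3b out, gave 299 genes in the slopes of newborn neurons against basal progenitors. Quantile scaling gave 1 gene, Ezh1, lower in the last step of stem cells and 2 higher in the difference of steps, and kept 13 of 30 genes of like pattern. Median-of-ratios scaling gave 3 and 0 higher in the same comparisons. Fitting only the libraries of a comparison gave 4 higher in the difference of steps. The 3 genes passing in the last step of basal progenitors became 0 with a pseudocount of 0.1, a mean of at least 5 TPM or only the libraries of the comparison, 5 with quantile scaling or without the 5 libraries, 6 with no filter and 12 with a pseudocount of 5. With a pseudocount of 5 the Ezh1 to Ezh2 ratio ran from -4.79 to -1.66, that of Dnmt3a to Dnmt3b from 2.16 to 2.98 and the lowest of Tet3 to Tet1 was 1.02. With 0.1 that of Dnmt3a to Dnmt3b ran from 3.24 to 4.86.

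Leaving out 1 library at a time, genes passing ranged from 2351 to 5397 in the last step of stem cells (1 to 6 of the 10 higher), 1 to 7 in that of basal progenitors and 1207 to 3815 in the difference of steps (0 to 4 higher). Of the 10 genes, 0 to 1 rose in newborn neurons, and newborn neurons against basal progenitors had 1 to 2 higher and 3 to 7 lower. Among single genes, 119 calls were lost and 24 gained in these fits, and 33 lost and 49 gained in the other alternatives.

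Quantile scaling moved the median of all genes from 0.09 to -0.07 in stem cells over days, from 0.08 to -0.05 in the last step of stem cells and from 0.10 to -0.03 in the difference of steps. Median-of-ratios scaling moved the last step of stem cells to -0.03. The median of the slopes of newborn neurons against basal progenitors went from -0.12 to 0.01 with both, and the share of calls higher from 42.4% to 60.2% and 57.1%. In the difference of steps that share went from 69.1% to 50.1% with quantile scaling, and in the last step of basal progenitors, over 3 genes, from 66.7% to 80% and 50%.

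Replicate numbers did not pair the samples: libraries of the same number in other groups had a mean r of 0.04 of their deviations, the lowest -0.59, and 25 of 63 were closest to one of their own number. With the replicate block, 9953 genes passed in stem cells over days and 1 in the last step of basal progenitors, and 3 calls of the 10 genes changed. Suz12 passed between newborn neurons and stem cells (-0.41), Tet1 passed in the last step of stem cells (0.94), and Dnmt1 did not pass in the slopes of stem cells against basal progenitors (-0.35).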
